A study of Homo sapiens with 6 samples.

Results

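Actin monomer-binding and severing proteins were followed through 10 genes of 786-O cells, an established human clear cell renal carcinoma line without functional VHL. The genes were the profilins PFN1 and PFN2, the cofilins CFL1 and CFL2 with destrin (DSTN), the beta-thymosins TMSB4X and TMSB10, the cyclase-associated proteins CAP1 and CAP2, and gelsolin (GSN). They were taken by gene name from the deposited count table, which held all 10 among its 58735 genes, and all 10 passed the filter on low counts that left 14573 genes. The comparison was between 2 groups of 3 libraries, cells with a short hairpin RNA against the Polycomb gene CBX7 (sh-CBX7) and cells with a control hairpin (sh-Control). No drug treatment or time point is named for either group. The labels do not state whether a group was a pool of cells or 1 clone, nor how many hairpins were used, so the comparison is between these cell populations.

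A cell holds much of its actin as monomers, and these proteins decide what the monomers do. Thymosins keep actin monomers from polymerising, and profilins bind monomers loaded with ATP and deliver them to growing filament ends. Cofilins and destrin bind and sever aged filaments, cyclase-associated proteins help cofilin and recharge the released monomers, and gelsolin severs and caps filaments when calcium rises. Actin monomers also bind MRTF coactivators of the transcription factor SRF, so that free monomer and the transcription of many cytoskeletal genes are linked.

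The libraries held 16473407 to 18868874 counts in sh-CBX7 and 16384151 to 18006814 counts in sh-Control. CBX7 itself averaged 7.44 ± 0.669 CPM in sh-CBX7 and 12.2 ± 0.983 CPM in sh-Control (SD, n = 3 each), where CPM is the count scaled to the library's TMM-normalised total (log2 fold change -0.71, SE 0.13, edgeR adjusted p = 5.41e-05). All 10 renal carcinoma and tubule markers passed the low count filter, 3 of them called higher and 3 lower. KRT8, KRT18 and KRT19 rose, PAX8 and PAX2 fell, and CA12 averaged 180.1 CPM in sh-CBX7 and 418.4 CPM in sh-Control. Their summed level, carried mostly by VIM and KRT8, ran from 4429 to 4681 CPM in sh-CBX7 and from 4303 to 4541 CPM in sh-Control. Of 6 immune markers 2 passed the filter, and the 6 summed to 27.1 to 29.7 CPM in sh-CBX7 and 53.5 to 66.3 CPM in sh-Control, nearly all of it LAPTM5, which fell (log2 fold change -1.12). PTPRC and CD3E had 0 counts in every library. The 4 endothelial markers summed to 3.86 to 5.04 CPM in sh-CBX7 and 2.22 to 3.13 CPM in sh-Control, with PECAM1 higher by 0.70 on the log2 scale and CDH5 at 0 counts in every library. The 6 fibroblast markers summed to 11.1 to 12.7 CPM in sh-CBX7 and 10.04 to 11.7 CPM in sh-Control, with LUM higher by 0.73 and COL1A1 lower (log2 fold change -1.03). The 5 smooth muscle markers summed to 257.8 to 283.7 CPM in sh-CBX7 and 7.79 to 9.18 CPM in sh-Control. ACTA2, a muscle actin gene, carried almost all of that sum, with 268.5 CPM in sh-CBX7 and 6.14 CPM in sh-Control (log2 fold change 5.45), and TAGLN averaged 3.29 CPM in sh-CBX7 and 1.75 CPM in sh-Control. MYH11, CNN1 and DES had at most 16 counts in any library. The part of these markers in the results on the 10 genes was not tested.

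Of the 10 genes, 6 rose in sh-CBX7, 1 fell and 3 did not pass the test (edgeR quasi-likelihood test, adjusted over all 14573 tested genes, called below 0.05). CFL1, DSTN, TMSB4X, CAP1, TMSB10 and PFN1 rose, by 1.25-fold to 1.62-fold, and GSN was 1.62-fold lower. PFN2, CFL2 and CAP2 kept log2 fold changes between -0.10 and 0.03. Over all tested genes 26.1% rose and 27.2% fell. Among the 2132 genes that averaged 100 CPM or more, which include 8 of the 10, 36.8% rose and 38.1% fell, against 6 and 0 of those 8. The median log2 fold change was 0.34 for the 10 genes and -0.006 for all tested genes. In 7 of the 10 genes the libraries of the 2 groups did not overlap, which was so for 59% of tested genes. In bulk RNA a change per cell and a change in the share of cells that express a gene cannot be told apart.

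**Figure D1:**
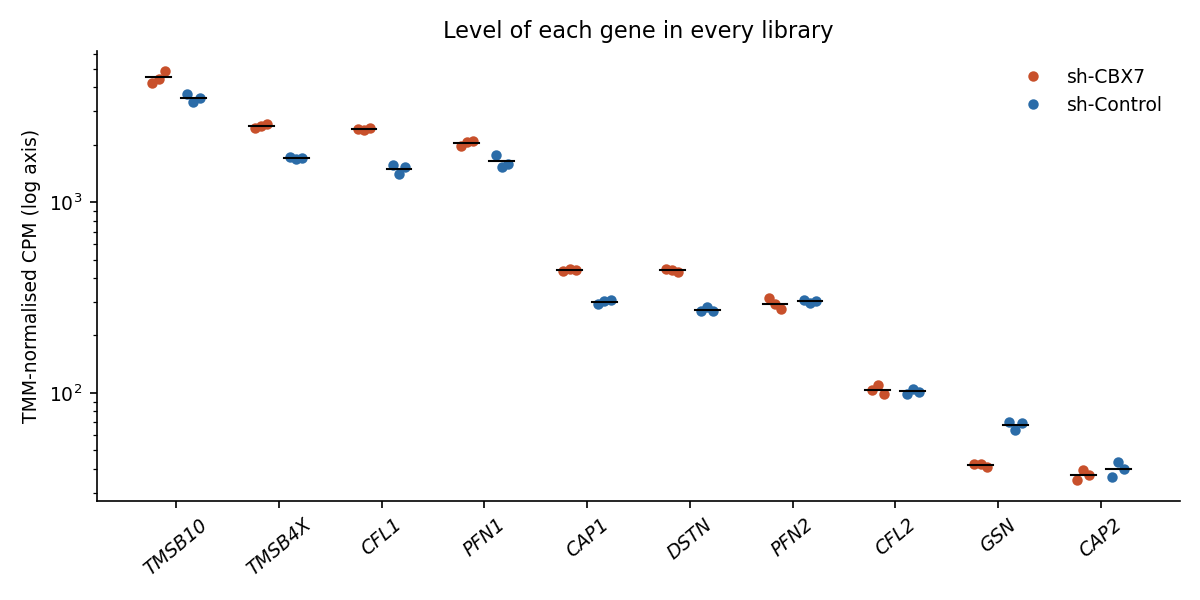
Level of each gene in TMM-normalised CPM (log axis) in the 3 sh-CBX7 and 3 sh-Control libraries; points are libraries and black lines are means. TMSB10 lies highest, between 4228 and 4858 CPM in sh-CBX7, and the sh-CBX7 points lie above the sh-Control points for the 6 genes that rose and below them for GSN.

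The thymosins, TMSB10 (ENSG00000034510, chr2:84905625-84906675, plus strand, GRCh38) and TMSB4X (ENSG00000205542, chrX:12975108-12977227, plus strand), were the most abundant of these transcripts per kilobase. TMSB10 had 4228, 4446 and 4858 CPM in the sh-CBX7 libraries, against 3668, 3346 and 3533 CPM in the sh-Control libraries (log2 fold change 0.36, SE 0.05, edgeR adjusted p = 6.52e-06). Its sh-CBX7 libraries were the most spread of the 6 genes that rose, with a coefficient of variation of 7.09%, yet the lowest stayed above every sh-Control library. TMSB4X had 2456, 2518 and 2559 CPM in sh-CBX7, against 1723, 1688 and 1702 CPM in sh-Control (log2 fold change 0.56, SE 0.05, edgeR adjusted p = 9.82e-10). Its libraries were tight in both groups and far apart between them. Together both thymosins took 0.704% ± 0.0383 of all counts in sh-CBX7 and 0.519% ± 0.0103 in sh-Control (SD, n = 3 each).

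The sequence before the start of both thymosin genes is shown because both rose together and are the largest part of these transcripts. The stretches are the bases upstream of the RefSeq start (GRCh38, plus strand) that lie in no annotated exon: chrX:12974860-12975107 for TMSB4X, 250 to 3 bases before the start, and chr2:84905406-84905624 for TMSB10, 250 to 32 bases before the start. Capitals mark the GC box GGGCGG on either strand.
TMSB4X: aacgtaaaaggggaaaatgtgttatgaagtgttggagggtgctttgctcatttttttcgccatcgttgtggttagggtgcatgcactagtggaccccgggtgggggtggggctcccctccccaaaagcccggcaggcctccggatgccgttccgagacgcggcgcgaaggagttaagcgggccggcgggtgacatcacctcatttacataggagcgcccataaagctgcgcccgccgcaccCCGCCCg
TMSB10: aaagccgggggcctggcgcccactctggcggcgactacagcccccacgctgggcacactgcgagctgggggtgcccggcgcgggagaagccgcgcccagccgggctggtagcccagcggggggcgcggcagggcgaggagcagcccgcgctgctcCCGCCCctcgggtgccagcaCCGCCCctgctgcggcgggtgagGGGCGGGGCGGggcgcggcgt

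RefSeq promoter windows, from 250 bases before to 50 bases after a start, were given for 9 of the 10 genes, some with several starts. The GC box GGGCGG stood in a window of 8 of the 9 (CAP2 was the exception) and in 48.3% of 27305 genes on either strand. The sequence CCAAT stood in windows of CFL1, CAP1 and GSN, 3 of the 9, and in 39.7% of all genes. The CArG box, the site that SRF binds, was searched only in the exact form CCWWWWWWGG, where W is A or T. It stood in no window of the 9 and in 1.60% of all genes. At so low a share most sets of 9 genes would hold none, so its absence does not set these genes apart. Looser forms and sites outside the windows were not searched. Of the cytoplasmic actin genes, which both fell in sh-CBX7, ACTB had no window given. The box was read gene by gene only for the 10 genes and the cytoplasmic actins, not for ACTA2, which rose. A link between the box and the direction of change was not tested. As an example of the box, ACTG1 holds it (capitals) within the stretch 104 to 75 bases before its start (chr17:81512874-81512903, GRCh38, minus strand).
ACTG1: ggaaagatcgCCATATATGGacatgttctg
A match or its absence in these windows describes the letters and was not tested as a binding site.

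The profilins, PFN1 (ENSG00000108518, chr17:4945652-4949061, minus strand) and PFN2 (ENSG00000070087, chr3:149964904-150050788, minus strand), split. PFN1, the widely expressed profilin, had 1977, 2058 and 2090 CPM in the sh-CBX7 libraries, against 1777, 1537 and 1587 CPM in the sh-Control libraries (log2 fold change 0.32, SE 0.05, edgeR adjusted p = 3.25e-05). The groups did not overlap, although sh-Control replicate 1 lay well above the other sh-Control libraries. PFN2, the profilin known mainly from neurons, had 313.8, 293.6 and 274.0 CPM in sh-CBX7, against 306.5, 296.4 and 303.3 CPM in sh-Control. The sh-CBX7 libraries lay on both sides of the sh-Control libraries (log2 fold change -0.04, 95% interval -0.16 to 0.08, edgeR adjusted p = 0.582).

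Within a library, PFN2 had 0.144 ± 0.0139 counts per PFN1 count in sh-CBX7 and 0.185 ± 0.0113 in sh-Control (SD, n = 3 each). On the log2 scale this ratio was lower by 0.37 (SE 0.09) in sh-CBX7, with no overlap between groups. The exact two-sided permutation test gave p = 0.1, the smallest that 3 against 3 libraries allow, and 0.125 when adjusted over the 5 ratios of paralogues compared.

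CFL1 (ENSG00000172757, chr11:65823022-65862026, minus strand) and DSTN (ENSG00000125868, chr20:17569863-17609919, plus strand) rose by nearly the same factor. CFL1, the main non-muscle cofilin, had 2404, 2398 and 2433 CPM in the sh-CBX7 libraries, against 1565, 1398 and 1522 CPM in the sh-Control libraries (log2 fold change 0.69, SE 0.05, edgeR adjusted p = 1.22e-10). DSTN, which depolymerises actin and binds monomers, had 447.8, 442.8 and 429.1 CPM in sh-CBX7, against 267.8, 280.3 and 267.1 CPM in sh-Control (log2 fold change 0.69, SE 0.05, edgeR adjusted p = 1.80e-10). Both genes were separated by group, and their sh-CBX7 libraries varied by 0.777% and 2.21% (coefficient of variation).

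The log2 ratio of DSTN to CFL1 counts averaged -2.45 ± 0.0425 in sh-CBX7 and -2.46 ± 0.123 in sh-Control (SD, n = 3 each). The difference was 0.0035 (SE 0.075), its groups overlapped, and the exact two-sided permutation p was 0.9. The sign of so small a difference turned negative when single libraries were left out (sh-CBX7 replicate 1 or 2, sh-Control replicate 1 or 3), within -0.041 to 0.074.

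CFL2 (ENSG00000165410, chr14:34706769-34714823, minus strand), the muscle-type cofilin, had 103.4, 109.3 and 98.8 CPM in sh-CBX7, against 99.1, 105.2 and 100.9 CPM in sh-Control. The groups overlapped throughout (log2 fold change 0.03, 95% interval -0.10 to 0.16, edgeR adjusted p = 0.713). CFL2 counts per CFL1 count were 0.0431 ± 0.00248 in sh-CBX7 and 0.0683 ± 0.00625 in sh-Control (SD, n = 3 each), and the log2 ratio was lower by 0.66 (SE 0.09) in sh-CBX7 without overlap (exact permutation p = 0.1, 0.125 adjusted over 5 ratios).

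The CAP genes were CAP1 (ENSG00000131236, chr1:40040233-40072649, plus strand) and CAP2 (ENSG00000112186, chr6:17393216-17557792, plus strand). CAP1, the widely expressed cyclase-associated protein, had 437.6, 447.7 and 438.9 CPM in the sh-CBX7 libraries, against 291.3, 302.6 and 308.3 CPM in the sh-Control libraries (log2 fold change 0.55, SE 0.05, edgeR adjusted p = 6.38e-09). Each sh-CBX7 library was above each sh-Control library. CAP2, known mainly from heart and skeletal muscle, had 34.9, 39.4 and 37.1 CPM in sh-CBX7, against 36.1, 43.4 and 39.9 CPM in sh-Control. These values overlapped (log2 fold change -0.10, 95% interval -0.27 to 0.07, edgeR adjusted p = 0.307). CAP2 counts per CAP1 count were 0.0841 ± 0.00423 in sh-CBX7 and 0.132 ± 0.0101 in sh-Control (SD, n = 3 each). This log2 ratio was lower by 0.65 (SE 0.08) in sh-CBX7, also without overlap (exact permutation p = 0.1, 0.125 adjusted over 5 ratios).

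The profilin pair, CFL1 with CFL2, and the CAP pair thus had the same order of change, with the paralogue of higher level per kilobase called higher in sh-CBX7 and the other one not called. DSTN lies outside this order, since it is lower than CFL1 per kilobase and rose by the same fold. The thymosins also differed from it, since TMSB4X, with the lower level per kilobase, had the larger log2 fold change. TMSB10 had 1.80 ± 0.0923 counts per TMSB4X count in sh-CBX7 and 2.06 ± 0.0743 in sh-Control (SD, n = 3 each), and the log2 ratio was lower by 0.20 (SE 0.05) in sh-CBX7 without overlap (exact permutation p = 0.1, 0.125 adjusted over 5 ratios).

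**Figure D2:**
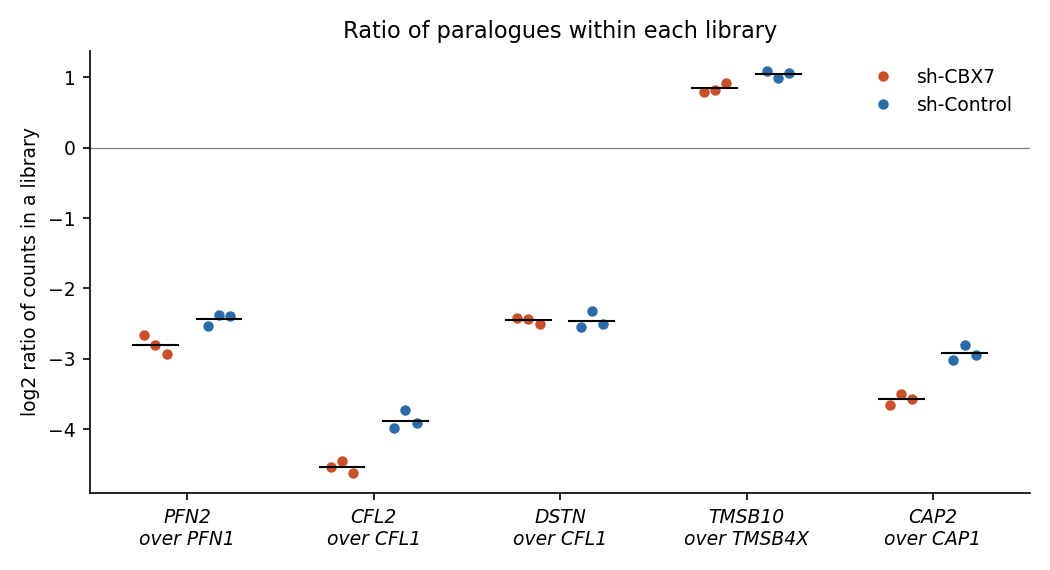
Log2 ratio of counts of 2 paralogues within each library, for 5 pairs in sh-CBX7 and sh-Control; points are libraries and black lines are means. The groups do not overlap for 4 ratios, each lower in sh-CBX7, and overlap for DSTN over CFL1.

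Gelsolin (GSN, ENSG00000148180, chr9:121207794-121332843, plus strand) was the only one of the 10 that fell. GSN had 42.3, 42.6 and 40.8 CPM in the sh-CBX7 libraries, against 70.1, 64.0 and 69.6 CPM in the sh-Control libraries (log2 fold change -0.70, SE 0.07, edgeR adjusted p = 1.38e-08). Each sh-CBX7 library lay below each sh-Control library. GSN took 0.00420% ± 0.000097 of all counts in sh-CBX7 and 0.00676% ± 0.000253 in sh-Control (SD, n = 3 each), the smallest share of the 5 families.

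**Figure D3:**
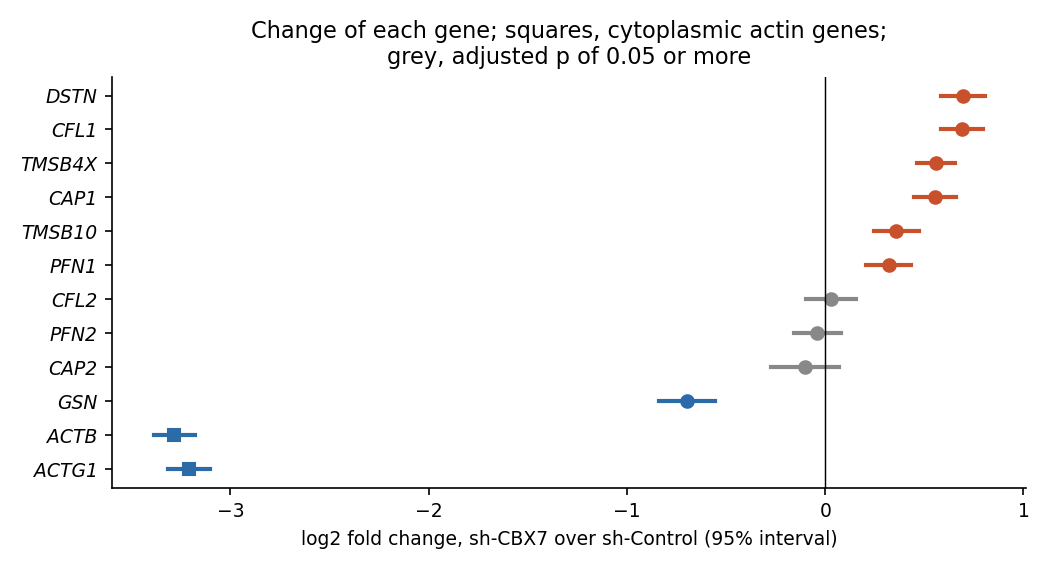
Log2 fold change, sh-CBX7 over sh-Control, of the 10 genes (circles) and of the cytoplasmic actin genes ACTB and ACTG1 (squares), with 95% intervals from the edgeR fit of 6 libraries. DSTN, CFL1, TMSB4X, CAP1, TMSB10 and PFN1 lie right of 0, GSN lies left of it at -0.70, and the intervals of CFL2, PFN2 and CAP2 cover 0.

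Summed over the 10 genes, their transcripts took 1.29% ± 0.0434 of all counts in sh-CBX7 and 0.938% ± 0.0233 in sh-Control (SD, n = 3 each; exact permutation p = 0.1, the smallest possible). Among the families whose share was higher in sh-CBX7, cofilins with destrin had the largest fold difference, 0.296% ± 0.000957 in sh-CBX7 and 0.186% ± 0.00505 in sh-Control. Profilins took 0.234% ± 0.00463 in sh-CBX7 and 0.193% ± 0.0103 in sh-Control, and CAP genes 0.0480% ± 0.000909 in sh-CBX7 and 0.0339% ± 0.00155 in sh-Control. None of the 6 shares overlapped between groups, as was so for 59% of tested genes, and leaving out any 1 library kept the sign of each. These shares are sums over the same 10 genes and so are not separate results.

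Levels of different genes were compared per kilobase (kb) of the gene length given in the deposited table, which can count exons that these cells do not use. In sh-CBX7 the order was TMSB10 at 9094 ± 645 CPM per kb, TMSB4X at 1473 ± 30.3, PFN1 at 1027 ± 29.4, CFL1 at 411.3 ± 3.19, CAP1 at 115.7 ± 1.43, DSTN at 114.2 ± 2.52, PFN2 at 79.2 ± 5.36, CFL2 at 14.5 ± 0.732, CAP2 at 10.2 ± 0.628 and GSN at 3.804 ± 0.0876 (SD, n = 3). CAP1 and DSTN did not differ there beyond their spread. In sh-Control the order began with the same 4 genes, TMSB10 at 7088 ± 327 CPM per kb, TMSB4X at 999.6 ± 10.4, PFN1 at 822.3 ± 63.6 and CFL1 at 255.0 ± 14.8. PFN2 came next in sh-Control at 81.4 ± 1.40 CPM per kb, followed by CAP1 at 78.8 ± 2.27 and DSTN at 70.6 ± 1.92. CFL2 at 14.2 ± 0.443, CAP2 at 10.9 ± 1.01 and GSN at 6.16 ± 0.308 CPM per kb closed the order in sh-Control.

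Transcripts of the cytoplasmic actins, ACTB and ACTG1, fell, while those of ACTA2 rose. ACTB averaged 167.0 ± 2.84 CPM per kb in sh-CBX7 and 1626 ± 24.4 in sh-Control, and ACTG1 190.4 ± 5.00 in sh-CBX7 and 1760 ± 57.1 in sh-Control (SD, n = 3 each), log2 fold changes of -3.28 and -3.21 in the edgeR test. In sh-CBX7 each cytoplasmic actin transcript thus lay below TMSB10, TMSB4X, PFN1 and CFL1 per kb, whereas in sh-Control each lay below TMSB10 alone.

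**Figure D4:**
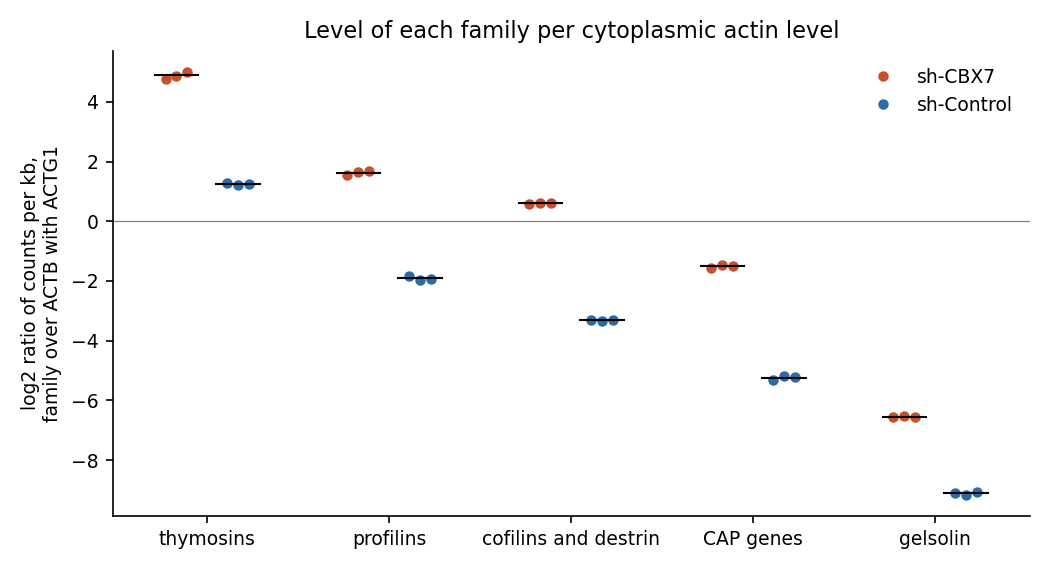
Log2 ratio of the summed counts per kb of each family to those of ACTB and ACTG1, in the 3 libraries of sh-CBX7 and of sh-Control; points are libraries and black lines are means. Each family lies higher in sh-CBX7, by 2.55 for gelsolin and by 3.54 to 3.91 for the other families.

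The summed level per kb of the thymosins was 29.6 ± 2.38 times that of ACTB with ACTG1 in sh-CBX7 and 2.39 ± 0.0462 times in sh-Control (SD, n = 3 each). For profilins the ratio was 3.10 ± 0.125 in sh-CBX7 and 0.267 ± 0.0134 in sh-Control, and for cofilins with destrin 1.51 ± 0.0270 in sh-CBX7 and 0.1003 ± 0.00160 in sh-Control. With the gene lengths of the deposited table, the profilin and cofilin transcripts were therefore above the actin level in sh-CBX7 and below it in sh-Control. Which side of that level they lie on depends on those lengths, which can count exons that these cells do not use. CAP genes had a ratio of 0.353 ± 0.0108 in sh-CBX7 and 0.0265 ± 0.00141 in sh-Control. Gelsolin fell less than actin did, so that its ratio was 0.0106 ± 0.000218 in sh-CBX7 and 0.00182 ± 0.000057 in sh-Control. Each of the 5 ratios gave an exact two-sided permutation p = 0.1, the smallest possible. Most of each difference is the change of ACTB and ACTG1, which enter every ratio, and these are transcript ratios, not amounts of protein. With the muscle actin genes counted as actin as well, among them ACTA2, the log2 differences were 2.22 for gelsolin and 3.21 to 3.59 for the other families.

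Reads of near-identical copies can be counted for either gene. Rows named as processed or unprocessed copies held at most 2.88% of the summed reads of DSTN and its copies, 1.74% for TMSB4X, 1.22% for CAP1 and 1.01% for PFN1, and at most 0.154% for any other member. Of all 75-base windows of the coding transcripts, 3.71% of those of TMSB4X, 3.13% of PFN1, 1.23% of DSTN and 1.09% of CAP1 also occur in transcripts of another gene on the same strand. None of those of PFN2, CFL1, CFL2, TMSB10, CAP2 or GSN did. With the counts of the rows named as copies added to their parent genes, 6 members rose and 1 fell. AC022868.1, which holds 46 of the DSTN windows, and AC026877.1, which holds 38 of the CAP1 windows, carry no such name. Their counts were not added, so their part in the DSTN and CAP1 results was not tested.

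On the opposite strand, 28.9% of the CAP1 windows occur in another gene's transcripts, as do 22.3% of the CFL1 windows, 3.11% of the TMSB4X windows, 1.87% of the PFN1 windows and 1.48% of the GSN windows. PFN1 overlaps ENO3, with 0.514% as many counts as PFN1 and a log2 fold change of -0.10 (edgeR adjusted p = 0.565). CAP1 overlaps PPT1, which had 45.8% as many counts as CAP1 and rose (log2 fold change 0.70, edgeR adjusted p = 1.17e-09). CFL1 overlaps MUS81, with 4.01% as many counts as CFL1 and a log2 fold change of 0.52 (edgeR adjusted p = 4.14e-07). GSN overlaps RAB14, with 121% as many counts as GSN and a log2 fold change of -0.20 (edgeR adjusted p = 0.0473). The library kit named in the labels keeps strand, but the strand setting of the counting is not given in the sources used here, so if counting ignored strand, reads of these neighbours cannot be told apart from those of the members, and their part in the results was not tested.

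The proteins that switch cofilin on and off were read from a list of 13 kinases and phosphatases, of which all were tested, 4 rose and 4 fell. Over all tested genes 26.1% rose and 27.2% fell, so that these shares are near the background. LIMK1, the kinase that phosphorylates and silences cofilin, had 298.5, 287.9 and 290.7 CPM in sh-CBX7, against 162.4, 166.6 and 166.0 CPM in sh-Control (log2 fold change 0.83, SE 0.05, edgeR adjusted p = 1.54e-11). PDXP, a phosphatase that reactivates cofilin, averaged 30.8 ± 2.74 CPM in sh-CBX7 and 19.1 ± 2.88 CPM in sh-Control (SD, n = 3 each; log2 fold change 0.69). PAK1, which activates LIM kinases, rose by 0.42 on the log2 scale. ROCK1, another activator of LIM kinases, fell by 0.28, and its call was lost without sh-CBX7 replicate 1 (adjusted p = 0.0577) or sh-Control replicate 2 (adjusted p = 0.0661). The number that fell was 2 rather than 4 without any 1 of the sh-CBX7 libraries or without sh-Control replicate 1.

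Cofactors of cofilin rose in 5 of 9 and fell in 2, beside 26.1% and 27.2% of all tested genes. WDR1, which drives the disassembly of cofilin-bound filaments, had 1543, 1438 and 1461 CPM in sh-CBX7, against 822.8, 747.2 and 781.4 CPM in sh-Control (log2 fold change 0.92, SE 0.05, edgeR adjusted p = 1.67e-12). The coronins CORO2B, CORO1B and CORO1C rose by 1.29, 0.36 and 0.30 on the log2 scale. CORO2B, the least abundant of these coronins, averaged 12.7 ± 2.11 CPM in sh-CBX7 and 5.19 ± 0.951 CPM in sh-Control (SD, n = 3 each). The 2 cofactors that fell are also coronins, named after their values were seen. CORO6 averaged 2.95 ± 0.491 CPM in sh-CBX7 and 4.72 ± 0.724 CPM in sh-Control, and CORO1A 3.57 ± 0.332 CPM in sh-CBX7 and 4.87 ± 0.310 CPM in sh-Control (SD, n = 3 each), with edgeR adjusted p of 0.00629 and 0.0354. The number that fell was 1 rather than 2 without sh-CBX7 replicate 2 or 3 or sh-Control replicate 3.

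Of 6 tested relatives of cofilin and twinfilins, 3 rose and 1 fell, beside 26.1% and 27.2% of all tested genes. COTL1, a coactosin that binds filaments, averaged 958.7 ± 3.78 CPM in sh-CBX7 and 482.1 ± 16.4 CPM in sh-Control (SD, n = 3 each; log2 fold change 0.99, SE 0.05, edgeR adjusted p = 2.17e-13). The drebrin gene DBN1 rose by 0.36 and GMFB, a glia maturation factor that debranches actin networks, fell by 0.45. DBNL had 0.16, called in all 6 libraries but not without sh-CBX7 replicate 1 or 3 or sh-Control replicate 2 or 3 (adjusted p from 0.0624 to 0.130). Without sh-Control replicate 1 the number that rose was 5 rather than 3.

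In the gelsolin superfamily 5 of 7 listed genes were tested besides GSN itself, 1 rose and 2 fell, which is near the 26.1% and 27.2% of all tested genes. SVIL, supervillin, which ties myosin II and actin to membranes, had 21.2, 23.9 and 21.3 CPM in sh-CBX7, against 65.5, 76.3 and 72.7 CPM in sh-Control (log2 fold change -1.69, SE 0.08, edgeR adjusted p = 6.64e-14). FLII, the flightless homologue, fell by 0.32. CAPG, which caps filaments without severing them, averaged 1523 ± 74.8 CPM in sh-CBX7 and 1200 ± 118 CPM in sh-Control (SD, n = 3 each; log2 fold change 0.34). CAPG thus rose while GSN, SVIL and FLII fell. SCIN, tested at a mean below 1 CPM, had -0.74 (SE 0.56, edgeR adjusted p = 0.282) and was called only without sh-CBX7 replicate 1 (log2 fold change -1.80, adjusted p = 0.0377).

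Formins and Ena/VASP proteins, which take up profilin-bound actin at growing ends, had 6 higher and 6 lower of 15 tested. All tested genes were split about evenly too, with 26.1% higher and 27.2% lower. VASP averaged 374.9 ± 5.13 CPM in sh-CBX7 and 207.0 ± 21.0 CPM in sh-Control (SD, n = 3 each; log2 fold change 0.86, edgeR adjusted p = 1.27e-10). Its relative ENAH fell by 0.61. DIAPH1, a formin, had 26.7, 23.7 and 25.4 CPM in sh-CBX7, against 60.7, 69.2 and 71.5 CPM in sh-Control (log2 fold change -1.41, SE 0.08, edgeR adjusted p = 1.53e-12). INF2, a formin that also severs filaments, rose by 0.61.

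Of the capping protein subunits, CAPZA1 fell by 0.53 and CAPZB rose by 0.24 on the log2 scale. CAPZA2 had 0.14 (edgeR adjusted p = 0.0945), and was called without sh-Control replicate 2 (log2 fold change 0.22, adjusted p = 0.00966). Among 3 tested genes of the MRTF and SRF system SRF averaged 144.2 ± 9.93 CPM in sh-CBX7 and 94.96 ± 2.24 CPM in sh-Control (SD, n = 3 each; log2 fold change 0.60), while MRTFA fell by 0.50. MRTFB had -0.23 (edgeR adjusted p = 0.142), and was called without sh-Control replicate 1 (log2 fold change -0.31, adjusted p = 0.0415). MYOCD, the muscle member, had 0 counts in every library.

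Other profilins and thymosins were near the floor of detection. PFN4 averaged 0.883 ± 0.119 CPM in sh-CBX7 and 1.22 ± 0.117 CPM in sh-Control (SD, n = 3 each; log2 fold change -0.45, edgeR adjusted p = 0.279). Of 2 rows that carry the name TMSB15B, the one with more counts averaged 1.95 ± 0.275 CPM in sh-CBX7 and 3.16 ± 1.32 CPM in sh-Control (log2 fold change -0.70, edgeR adjusted p = 0.0353). Without sh-Control replicate 2, its highest library, the log2 fold change was -0.30 (adjusted p = 0.413), and without any 1 of the sh-CBX7 libraries the adjusted p was 0.0565 to 0.124. The other TMSB15B row had a log2 fold change of 0.32 (edgeR adjusted p = 0.591).

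**Figure D5:**
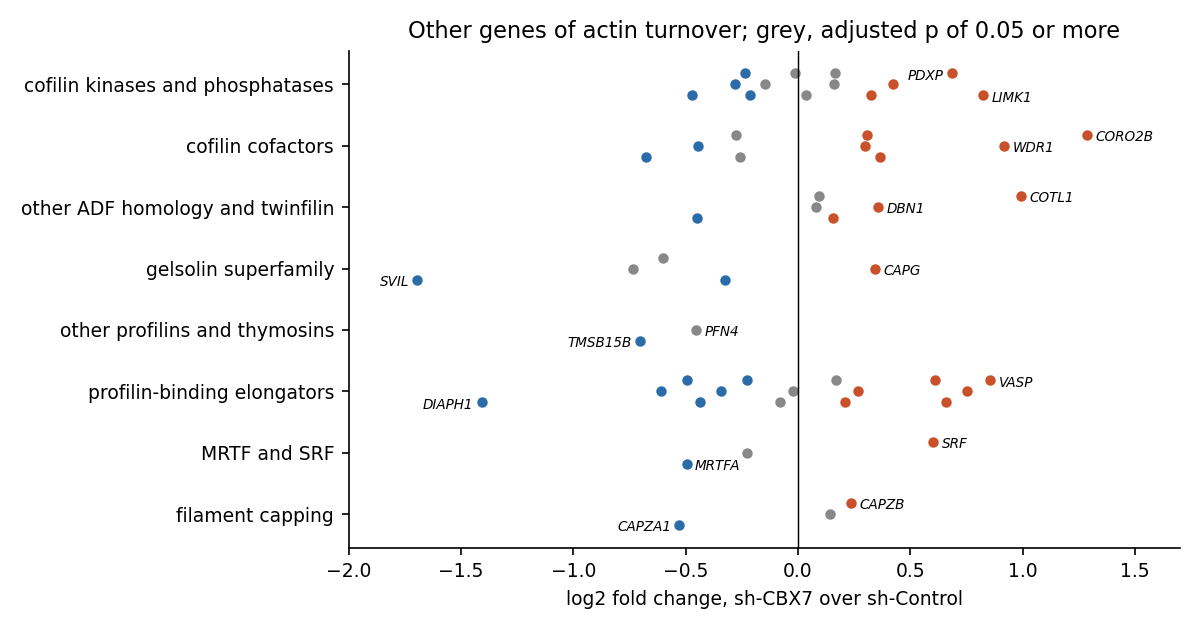
Log2 fold change, sh-CBX7 over sh-Control, of each tested gene in 8 lists of actin turnover genes; orange marks genes that rose, blue genes that fell, grey an adjusted p of 0.05 or more, and the 2 genes with the smallest p of a list are named (of the TMSB15B rows the one with more counts is drawn). Called genes lie on both sides of 0 in 7 of the lists, with SVIL at -1.69 and CORO2B at 1.29 at the ends.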

How the data were processed

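Gene-level read counts of 6 poly-A libraries were used as deposited: whole numbers without normalization, 1 column per library. The submitters' processing notes name FastQC, Trimmomatic, HISAT2 2.0.5, featureCounts 1.5.0-p3 and the build hg19. Positions are given on GRCh38, because all 58735 gene starts and ends in the deposited table are those of GENCODE 29. Its columns say siCBX7 where the labels say sh-CBX7, and were matched by target and replicate number.

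Counts were filtered with filterByExpr, TMM-normalised and compared in an unpaired fit with the quasi-likelihood test of edgeR 4.0.16 (R 4.3.3), adjusted by Benjamini-Hochberg over all tested genes. The SE is the log2 fold change divided by the square root of F. The test was checked on simulated data with far fewer changed genes than were called here and with the dispersions of these libraries. That check does not cover a share of changed genes as large as here. Single ratios and shares were compared with exact two-sided permutation tests. The gene length, in bases, is the one in the deposited table. Promoter windows are from RefSeq (GRCh38.p14), transcripts from GENCODE 29.

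The genes, lists and tests were chosen with earlier results of these data known. Named are the 10 genes, CBX7, the cytoplasmic actins and, of each list, up to 4 tested genes by smallest p; overlapping neighbours, further markers and the muscle actins were added after their values were seen. Alternatives were no filter, scaling by library size alone or by DESeq2 size factors, DESeq2 1.42.0, the replicate block, leaving out each library and adding copies. A length and GC offset and the muscle actins in the actin level were added after seeing the data. No label says that the libraries are from separate cultures. The p-values therefore reflect variation from library to library alone, possibly technical. Within groups the chi-square per gene between libraries was 2.85 to 9.23, above sampling noise, and each library was kept as a sample. It was 9.23 and 5.78 for sh-Control replicate 1 against replicates 2 and 3, and 2.85 between those. Such values cannot tell separate cultures from separate preparations of 1 culture.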

Additional observations from a re-analysis of the deposited data

How the results depend on the processing

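Under each alternative 6 of the 10 genes rose and 1 fell, and the 7 called genes kept direction and call in all 13 alternatives each. Of the uncalled ones, CFL2 had log2 fold changes of -0.0098 (without sh-CBX7 replicate 2) to 0.0628 and PFN2 of -0.0903 to 0.0071 (without sh-CBX7 replicate 3) when 1 library was left out. The numbers of genes higher and lower over all genes were 3799 and 3967, 3347 and 3445 by DESeq2, and 3398 to 3953 and 3584 to 4082 without 1 library. The CBX7 log2 fold change lay between -0.775 and -0.649 without 1 library and was -0.58 with the length and GC offset.

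A fit with a replicate block called 3972 genes higher and 4126 lower, and the 10 genes kept their calls. Deviations from the group means correlated at 0.0553, 0.0614 and 0.0353 between libraries with 1 number, and at -0.0474 to -0.00888 between the rest. Each library correlated best with its own number, a weak hint from the data only, so the unpaired fit was kept. Under that block 2 capping genes were higher rather than 1.

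Small counts in the lists moved most. Lower cofilin kinases and phosphatases numbered 2 with the length and GC offset, 1 by DESeq2 and 2 to 4 without 1 library. Higher ones, 4 in the main fit, numbered 6 with that offset, 3 by DESeq2 and 3 to 5 without 1 library. Lower cofilin cofactors numbered 1 without the filter, 1 with that offset, 1 by DESeq2 and 1 to 2 without 1 library. Lower profilin and thymosin relatives numbered 0 by DESeq2 and 0 to 1 without 1 library. Without 1 library, 1 to 2 capping genes were higher, 2 to 5 relatives of cofilin higher and 1 to 2 MRTF and SRF genes lower.

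The DSTN to CFL1 log2 ratio differed by -0.041 to 0.074 without 1 library and by -0.0102 with copies added. With the muscle actins in the actin level, the log2 difference was 3.30 for thymosins, 3.21 for profilins, 3.59 for cofilins with destrin, 3.41 for CAP genes and 2.22 for gelsolin. The causes were not tested. The SE was 0.34 for PFN4, a gene near the floor of detection, and 0.05 for the abundant CFL1.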
